A study of Oryza sativa with 10 samples.

Results

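The auxin synthesis genes described here are 7 rice loci, fixed by identifier and taken from the 55801 features of the count tables. They are the tryptophan aminotransferase genes TAA1 (also called FIB, LOC_Os01g07500) and TAR1 (LOC_Os05g07720), and the YUCCA monooxygenase genes YUC1 (LOC_Os01g45760), YUC4 (LOC_Os01g12490), YUC6 (LOC_Os07g25540), YUC9 (LOC_Os01g16714) and YUC11 (LOC_Os12g08780). RNA came from whole developing rice seeds without the husk, taken 48 and 72 hours after fertilization (HAF). Besides wild type (WT) there were 4 single lines: OE78 (line OE78-8) and OE79 (line OE79-3) overexpress MADS78 and MADS79 per their labels, and CR78 (line Cr78_8.22.2) and CR79 (line Cr79_11.25.3) carry CRISPR edits at those genes. Both genes encode type I MADS-box proteins, and their role in the young seed was the subject of the study. Each genotype gave 1 library at each time, so the design holds 10 libraries and no replicate of a line at a time. Of the cultivar, the overexpression promoter and the edited bases the labels say nothing.

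Auxin (indole-3-acetic acid, IAA) is made from tryptophan in a short pathway. Aminotransferases of the TAA1 family turn tryptophan into indole-3-pyruvate, and YUCCA flavin monooxygenases turn that into IAA. In cereal grains IAA rises as the endosperm begins to fill, and in rice TAR1, YUC9 and YUC11 are known as genes of the endosperm. In rice, loss of FIB affects leaf shape, roots and the response to gravity.

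Library totals lay between 15349522 and 18040600 counts in 9 libraries and at 12267337 in CR79 72 HAF, where 15.1% of counts fell on the top 50 genes, against 6.8% to 9.28% elsewhere. Reads of MADS78 numbered 2116 in OE78 72 HAF and 0 to 6 in the other 9 libraries. MADS79 reads were not raised in the libraries labelled OE79 (39 and 7, against 33 and 20 in WT), and read counts alone do not check the CRISPR labels, since an edit need not lower them. Levels are given as CPM, the usual depth-scaled read count after TMM normalization, and are not corrected for gene length, so they are not compared between genes. The CR78 48 HAF library stood apart for heat shock genes, whose 4 listed members summed to 239 CPM, against 40.1 to 67.3 CPM in the other libraries.

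Of the 7 genes, 4 had enough reads for a test. TAA1 had 5330 reads over the 10 libraries, YUC9 had 625, TAR1 had 545 and YUC1 had 86. Reads of YUC6 (20), YUC4 (14) and YUC11 (9) fell below the filter on low counts, so these 3 genes are given as reads only.

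From 48 to 72 HAF both aminotransferase genes rose and neither tested YUCCA gene passed the threshold. That makes 2 of 4 tested members called higher and none lower, against a background of 15.2% of all 25354 tested genes called higher, 12.9% called lower and 28.1% called in either direction (edgeR quasi-likelihood test, adjusted p under 0.05). DESeq2 also called 2. The median log2 fold change of the 4 was 0.23, beside -0.02 over all tested genes. The test took 1 time effect over the 5 genotypes.

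TAR1 was the member that moved most. At 48 HAF it stood at 0.628 CPM in CR78, 0.861 in CR79, 0.528 in WT, 0.458 in OE78 and 0.697 in OE79, from 8 to 14 reads per library. By 72 HAF its level was 11.7 CPM in CR78, 14.1 in CR79, 3.11 in WT, 4.37 in OE78 and 2.39 in OE79, from 36 to 173 reads. The 48 and 72 HAF libraries did not overlap, a split whose share over all tested genes was not counted. At 72 HAF the CRISPR lines stood above all 3 other genotypes. The rise measured 3.22 on the log2 scale (edgeR, SE 0.38 and adjusted p = 0.000656), and TAR1 was higher at 72 HAF in 5 of 5 genotypes. Within WT alone TAR1 was 5.89 times as high at 72 as at 48 HAF (95% counting interval 2.89 to 13.5). The same ratio was 18.6 (9.89 to 39.6) in CR78 and 16.4 (9.5 to 30.7) in CR79, and 9.55 (4.58 to 23) in OE78 and 3.43 (1.75 to 7.25) in OE79. These intervals are exact binomial ones for 1 library against 1 and cover counting error only, not the spread between seeds or plants.

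TAA1, the other aminotransferase gene, rose by much less. Its level at 48 HAF was 33.4 CPM in CR78, 25.9 in CR79, 32.7 in WT, 23.6 in OE78 and 30.6 in OE79. At 72 HAF it was 40.2 CPM in CR78, 35.6 in CR79, 40 in WT, 26.4 in OE78 and 50.4 in OE79. Every genotype was higher at 72 HAF, but the ranges of the times overlapped, since OE78 at 72 HAF lay below WT at 48 HAF. The log2 fold change was 0.38 (edgeR, SE 0.10 and adjusted p = 0.0248). That call rests on small margins: leaving out any 1 of the WT, OE79, CR78 or CR79 libraries brought the adjusted p to between 0.0572 and 0.0818 in edgeR, and a fit that ignores the pairing by line gave 0.0947. In contrast TAR1 stayed past the threshold in all 10 such runs, with log2 fold changes of 2.94 to 3.56.

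**Figure D1:**
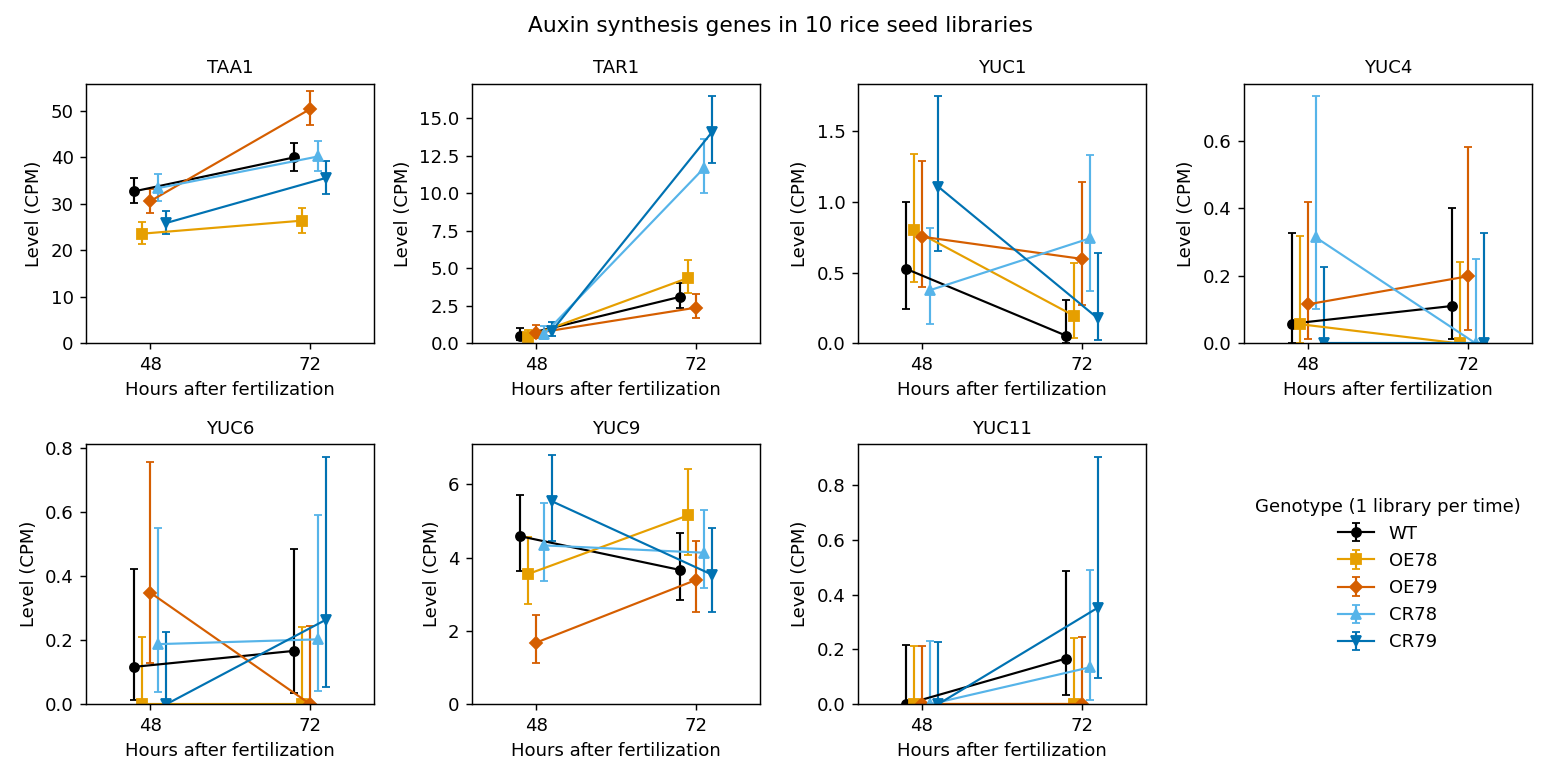
Level in CPM (vertical axis, linear, a scale of its own for each gene) of the 7 auxin synthesis genes at 48 and 72 HAF, with a line for each genotype, 1 library per point, and bars for the exact 95% Poisson interval of the counts. TAR1 climbs in all 5 genotypes and reaches 11.7 and 14.1 CPM in CR78 and CR79, TAA1 rises by less, YUC9 crosses between genotypes, and YUC4, YUC6 and YUC11 stay at a few reads.

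YUC9, the YUCCA member with the most reads, gave no common time course. At 48 HAF its level was 4.33 CPM in CR78, 5.53 in CR79, 4.58 in WT, 3.55 in OE78 and 1.68 in OE79. Values at 72 HAF were 4.13 CPM in CR78, 3.53 in CR79, 3.66 in WT, 5.15 in OE78 and 3.39 in OE79. The means of the 5 genotypes were 3.93 ± 1.44 CPM at 48 HAF and 3.97 ± 0.716 CPM at 72 HAF (SD over 5 libraries of different genotypes). The log2 fold change was 0.08 (edgeR, SE 0.27 and adjusted p = 0.84), and its sign turned, with values down to -0.12, when any 1 of the OE78 and OE79 libraries was left out. YUC9 was higher at 72 HAF in OE78 and OE79 and lower in WT, CR78 and CR79. The lowest of the 10 values was OE79 at 48 HAF, with 29 reads, 0.368 times the WT level (95% counting interval 0.232 to 0.571).

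YUC1 was sparse. At 48 HAF it had 6 reads in CR78, 18 in CR79, 9 in WT, 14 in OE78 and 13 in OE79, and at 72 HAF 11, 2, 1, 3 and 9 reads in the same order. It was lower at 72 HAF in 4 of 5 genotypes and higher in CR78, with a log2 fold change of -1.13 (edgeR, SE 0.63 and adjusted p = 0.218), which missed the threshold. Against the single WT read at 72 HAF the CR78 level was 13.4 times as high, with a 95% counting interval of 1.95 to 577.

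YUC11 had no read in any 48 HAF library. At 72 HAF it had 3 reads in WT, 2 in CR78, 4 in CR79 and 0 in OE78 and OE79. A count of 0 allows up to 3 reads, which is 0.172 to 0.188 CPM in the 5 libraries of 48 HAF, so a level beneath that was not detectable at this depth. YUC4 had 5 reads in CR78, 0 in CR79, 1 in WT, 1 in OE78 and 2 in OE79 at 48 HAF, and 0, 0, 2, 0 and 3 in that order at 72 HAF. YUC6 had 3 reads in CR78, 0 in CR79, 2 in WT, 0 in OE78 and 6 in OE79 at 48 HAF, and 3, 3, 3, 0 and 0 at 72 HAF. YUC4 and YUC6 each had reads in 6 of 10 libraries. No direction is given for YUC4, YUC6 and YUC11, and no fold, since both times lie near the limit that a count of 0 allows.

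YUC9 and YUC11 are listed as endosperm genes, and 7 endosperm markers were read beside them. They include Wx (granule-bound starch synthase) and NF-YB1 (an endosperm subunit of nuclear factor Y). At 48 HAF 2 to 4 of the 7 markers had reads and their summed level was 1.23 to 16.7 CPM. At 72 HAF all 7 had reads in every library, with sums of 91.8 CPM in OE78, 116 in OE79, 151 in WT, 731 in CR79 and 942 in CR78. TAR1 had the order OE79, WT, OE78, CR78, CR79 at 72 HAF, so the CRISPR lines came highest in both. Against WT over both times 1 of the 7 markers was called higher in CR78 and 4 in CR79 (edgeR), beside 0.0749% and 2.19% of all tested genes called in either direction. With reads for only 2 to 4 of the 7 at 48 HAF, these calls rest mainly on the 72 HAF libraries, 1 per line. They are not used as support. YUC9 did not follow the markers, since it had its highest level in CR79 at 48 HAF. In whole seeds, more endosperm cells and more RNA per endosperm cell cannot be told apart.

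Other tissues were present at both times. The sum of 4 green pericarp markers, of which LOC_Os09g17740 failed the check of its name, was 2140 to 3750 CPM at 48 HAF and 4480 to 5940 CPM at 72 HAF. Embryo and meristem markers, 3 genes, summed to 7.33 to 28 CPM over the 10 libraries. That sum hides opposite changes over time. The log2 fold change was -1.63 for OSH1 and -1.68 for OSH15 (edgeR adjusted p = 0.017 and 0.0406). For VP1 it was 3.10 (edgeR adjusted p = 0.00382). The part of the endosperm, pericarp and embryo markers in the changes of TAR1 and TAA1 was not tested.

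Against WT, no member was called in any line. In OE78 0 of 4 tested members passed (edgeR, background 0.142% of tested genes), 1 had an unadjusted p under 0.05, and DESeq2 called 0. In OE79 it was also 0 of 4 (background 0.154%), with 0 at an unadjusted p under 0.05 and 0 by DESeq2. In CR78 0 of 4 passed (background 0.0749%), 1 had an unadjusted p under 0.05 and DESeq2 called 0. CR79 gave 0 of 4 (background 2.19%), 1 at an unadjusted p under 0.05 and 0 by DESeq2. That background, 555 genes, moved with single libraries: it was 11 genes without the WT 48 HAF library, 8 without WT 72 HAF and 52 without CR79 72 HAF, and 143 to 380 without any 1 of the other 7. The lines are compared with the same WT libraries, so these 4 comparisons are not independent of each other. The spread behind each p-value is only how far these libraries depart from additive line and time effects. A difference from WT that is present at 1 time only adds to that spread. No p-value here can separate the targeted gene from other differences of a line.

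TAR1 gave the unadjusted p under 0.05 in both CRISPR lines. Over both times the log2 difference from WT was 1.38 in CR78 (edgeR, SE 0.57 and adjusted p = 0.895) and 1.67 in CR79 (edgeR, SE 0.57 and adjusted p = 0.145), neither past the threshold. Leaving out 1 library gave 0.51 to 1.77 in CR78, with 0.51 without CR78 72 HAF and 0.82 without WT 72 HAF. In CR79 it gave 1.02 to 2.03, with 1.02 without CR79 72 HAF. At 72 HAF its level was 3.77 times that of WT in CR78 (95% counting interval 2.77 to 5.18) and 4.54 times in CR79 (3.33 to 6.28). At 48 HAF the ratios were 1.19 (0.435 to 3.31) and 1.63 (0.657 to 4.27), whose counting intervals include equal levels. In OE78 the ratio to WT was 1.41 (0.971 to 2.04) at 72 HAF and in OE79 it was 0.77 (0.492 to 1.19).

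TAA1 was lowest in OE78 at both times. Its ratio to WT there was 0.722 (0.634 to 0.821) at 48 HAF and 0.659 (0.582 to 0.746) at 72 HAF. Over both times the log2 fold change was -0.53 (SE 0.16, unadjusted p = 0.00973, edgeR adjusted p = 0.707). In OE79 the level of TAA1 was 0.934 times that of WT at 48 HAF (0.827 to 1.05) and 1.26 times at 72 HAF (1.14 to 1.4). In CR78 it was 1.02 and 1.01 times that of WT at 48 and 72 HAF. In CR79 it was 0.791 times that of WT at 48 HAF (0.695 to 0.899) and 0.89 times at 72 HAF (0.786 to 1.01).

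**Figure D2:**
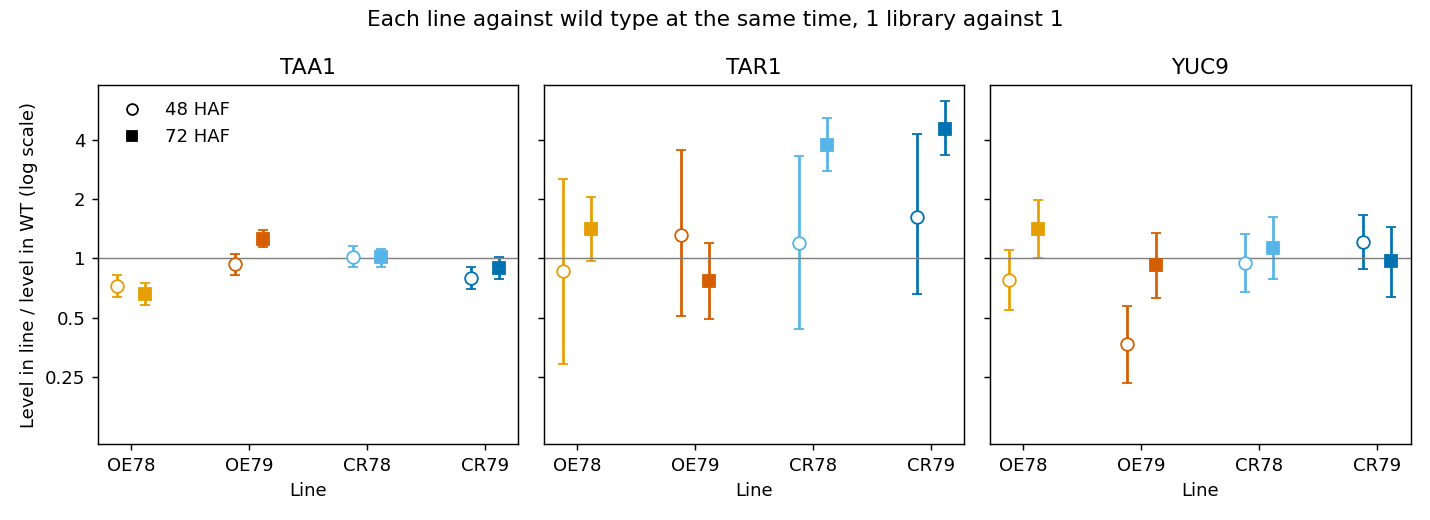
Ratio of the level in each line to the WT level at the same time (vertical axis, log scale) for TAA1, TAR1 and YUC9, with open circles for 48 HAF, filled squares for 72 HAF, and bars for the 95% counting interval of 1 library against 1. TAR1 at 72 HAF stands at 3.77 and 4.54 in CR78 and CR79, TAA1 in OE78 lies under 1 at both times, and YUC9 in OE79 at 48 HAF lies at 0.368.

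The overexpression lines were also set against the CRISPR lines at 1 time, with the 2 lines of a class standing in for replicates. The lines of a class target different genes, so they are not replicates of 1 condition. The classes follow the labels. At 72 HAF MADS78 had 2116 reads in OE78 and 0 in WT, but MADS79 had 7 reads in OE79 and 20 in WT. A difference between the classes is therefore not shown to be an effect of overexpression. At 72 HAF TAR1 was at 4.37 and 2.39 CPM in OE78 and OE79 and at 11.7 and 14.1 CPM in CR78 and CR79. The classes did not overlap, but 2 libraries against 2 can easily split so, and the share over all tested genes was not counted. The log2 fold change of TAR1 was -1.93 (edgeR, SE 0.39 and adjusted p = 0.0647), just outside the threshold. So edgeR called 0 of 4 members, against a background of 0.951%. At an unadjusted p under 0.05 there was 1 member, beside 4196 of all 25354 tested genes. DESeq2 called TAR1 (log2 fold change -1.93, adjusted p = 0.00547), and so did edgeR without the filter on low counts (adjusted p = 0.00107). Those settings also called more genes in all, 1230 and 2061 against 241. Leaving out each library in turn gave log2 fold changes of -2.42 to -1.56, with adjusted p between 0.0537 and 0.377 in edgeR.

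At 48 HAF 0 of 4 members were called between the classes (edgeR, background 0.00394%), with 0 at an unadjusted p under 0.05 and 0 by DESeq2, which gave YUC1 no adjusted p. TAR1 differed there by a log2 fold change of -0.36 (edgeR, SE 0.50 and adjusted p = 0.853). YUC9 was at 3.55 and 1.68 CPM in the overexpression lines and at 4.33 and 5.53 CPM in the CRISPR lines (log2 fold change -0.91, SE 0.42, edgeR adjusted p = 0.693). Those classes did not overlap either, a split that 2 libraries against 2 can easily give. Its share over all tested genes was not counted. The difference was -0.47 without the OE79 48 HAF library and -1.54 without that of OE78. Reads did not show overexpression at 48 HAF. MADS78 had 6 reads in OE78 and 3 in WT, and MADS79 had 39 in OE79 and 33 in WT.

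Whether the change over time differed between the classes was tested directly, with the classes again taken from the labels. The interaction was called for 0 of 4 members (edgeR, background 0.0118%), with 1 at an unadjusted p under 0.05 and 0 by DESeq2, again with no adjusted p for YUC1. Over all 25354 tested genes 2565 had an unadjusted p under 0.05 in edgeR. For TAR1 the rise was smaller in the overexpression lines by 1.56 on the log2 scale (interaction -1.56, SE 0.63, edgeR adjusted p = 0.442). A larger rise in the CRISPR lines is therefore a value of these libraries and did not pass a test.

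Other genes of the auxin pathway were read from 6 lists of 98 loci, of which 79 could be tested. The lists take in GH3 genes by family, whatever hormone they act on. Between 48 and 72 HAF 17 of the 79 were called higher, 19 lower and 43 did not pass (edgeR), beside 15.2% higher and 12.9% lower over all tested genes. These all-gene shares also stand beside the counts of each list that follow. Among 9 further YUCCA loci 4 were tested, of which 1 was called higher, 1 lower and 2 did not pass. The gene called higher was LOC_Os02g17230, entered in the list as YUC12, a name that no source used here ties to the locus. It had 0 reads in all 5 libraries at 48 HAF and 254 in CR78, 157 in CR79, 42 in WT, 18 in OE78 and 66 in OE79 at 72 HAF. It passed the filter on low counts only through its 72 HAF libraries, so its call over time is counted above but not used as support. YUC12 was set against the 3 reads that a count of 0 allows in the 48 HAF library of the same genotype. Its 72 HAF level was 91.2 times that limit in CR78, 75.2 in CR79, 13.3 in WT, 6.84 in OE78 and 25.2 in OE79. These ratios leave out the counting error at 72 HAF. Like TAR1, YUC12 was highest in the CRISPR lines at 72 HAF, at 7.37 times the WT level in CR78 (95% counting interval 5.3 to 10.5) and 5.95 times in CR79 (4.21 to 8.57). The overexpression lines against the CRISPR lines at 72 HAF gave a log2 fold change of -2.48 (edgeR, SE 0.61 and adjusted p = 0.115), which missed the threshold. The YUCCA locus that fell, LOC_Os04g03980, entered as YUC7, had a log2 fold change of -0.81 (edgeR, SE 0.19 and adjusted p = 0.0157).

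Genes listed for steps after synthesis moved in both directions. Of 10 tested genes in the list of IAA conjugation and oxidation 2 rose and 1 fell. That list takes in GH3 genes by family, which joins amino acids to plant hormones. The hormone that each listed GH3 gene acts on was not tested, so these counts do not measure IAA conjugation. Both genes that rose in this list are GH3 genes, and their rise is not read as more IAA conjugation. GH3-5 (LOC_Os05g50890) rose by 1.48 on the log2 scale (edgeR, SE 0.11 and adjusted p = 8.05e-05), while GH3-11 (LOC_Os07g47490) fell by 0.32. Of 13 tested transport genes 4 rose and 1 fell, with the efflux carrier gene PIN10A (LOC_Os01g45550) rising by 0.45 and PIN5B (LOC_Os08g41720) by 1.86. Both listed receptor genes fell, with a median log2 fold change of -0.41. Of 26 tested Aux/IAA genes, which encode repressors that auxin causes to be degraded, 8 rose and 3 fell. IAA29 (LOC_Os11g11430) had the smallest adjusted p of these, with a log2 fold change of 4.53 (edgeR, SE 0.57 and adjusted p = 0.000894), and IAA11 (LOC_Os03g43400) rose by 1.87. Another of the 8 is the locus LOC_Os11g11420 (edgeR adjusted p = 0.0146). Between the classes at 48 HAF this locus had a log2 fold change of 0 and no SE, the same as YUC12, which had no reads there. The call of LOC_Os11g11420 over time is therefore counted but, like that of YUC12, not used as support. Of 24 tested ARF genes, the transcription factors that Aux/IAA proteins bind, 2 rose and 11 fell, so the share called lower was above the 12.9% of all tested genes. ARF13 (LOC_Os04g59430) rose by a log2 fold change of 1.83 and ARF12 (LOC_Os04g57610) fell by 0.87 on the log2 scale.

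**Figure D3:**
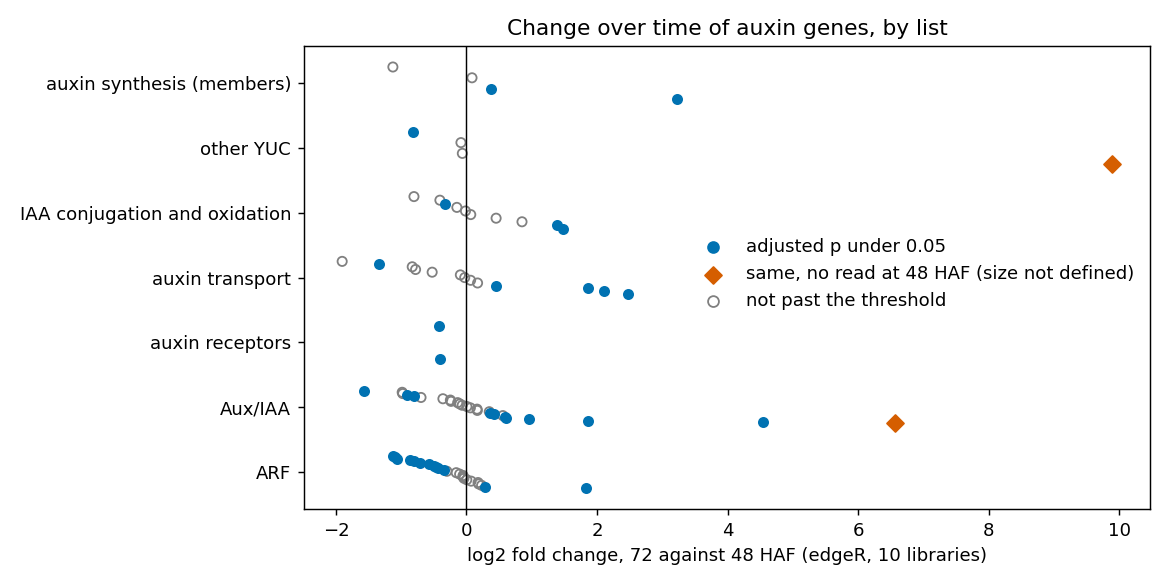
Log2 fold change from 48 to 72 HAF (horizontal axis, edgeR over 10 libraries) for each tested gene of the auxin lists. Filled symbols mark genes past the adjusted p threshold. Diamonds mark genes with no read at 48 HAF, whose fitted size is not defined. TAR1 lies at 3.22 and TAA1 at 0.38 among the members, YUC12 is the diamond of the other YUCCA loci, and 11 of 24 ARF genes fell.

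Between genotypes few of the 79 were called. None passed in OE78, OE79 or CR78 against WT in edgeR or DESeq2, with 1, 2 and 7 at an unadjusted p under 0.05. Over all 25354 tested genes the counts at that p were 1223, 836 and 1368. In CR79 1 of 79 was called (all-gene background 2.19%), with 22 at an unadjusted p under 0.05 and 3 by DESeq2. Over all tested genes 5518 had such a p and DESeq2 called 1209. The gene that edgeR called in CR79 was lower than in WT and is GH3-8 (LOC_Os07g40290), which in rice joins IAA to amino acids. It stood at 5.35 and 1.41 CPM in CR79 and at 31.3 and 12.9 CPM in WT (log2 fold change -2.70, SE 0.48, edgeR adjusted p = 0.0357). At 72 HAF 2 of 79 were called higher in the overexpression than in the CRISPR lines (all-gene background 0.951% in either direction), with 20 at an unadjusted p under 0.05 and 7 by DESeq2. Over all tested genes 4196 had such a p and DESeq2 called 1230. Both genes that edgeR called are Aux/IAA genes: IAA6 (LOC_Os01g53880, log2 fold change 1.65, edgeR adjusted p = 0.0358) and IAA19 (LOC_Os05g48590, log2 fold change 1.35, edgeR adjusted p = 0.048). The classes follow the labels, and MADS79 reads were not raised in OE79. The runs that left out a library covered the members only. How far the calls of IAA6, IAA19 and GH3-8 rest on single libraries was therefore not tested. Between the classes at 48 HAF edgeR and DESeq2 called 0 of the 79, with 4 at an unadjusted p under 0.05, beside 1822 of all tested genes. The interaction gave 0 in edgeR, 13 at an unadjusted p under 0.05 and 3 by DESeq2. Over all tested genes it gave 2565 at such a p and 542 by DESeq2.

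Of the 97 tested genes of all lists, those most like TAR1 over the 10 libraries were NF-YB1 (LOC_Os02g49410), with a Pearson r of 0.96 of log2(CPM + 1), and IAA29, with 0.956. These are descriptions over 10 libraries that share the step from 48 to 72 HAF. Both genes were picked by this r, so their levels at 72 HAF are no separate support for the pattern of TAR1. At 72 HAF NF-YB1 reached 13.6 CPM in CR78 and 11.8 in CR79, against 4.61 in WT, 3.26 in OE78 and 4.39 in OE79. IAA29 reached 20.9 CPM in CR78 and 18.6 in CR79, and stood at 5.33, 3.46 and 6.11 CPM in WT, OE78 and OE79. For YUC9 the highest r was 0.43, with IAA14 (LOC_Os03g58350), and the next was 0.414, with the transport list locus LOC_Os03g14080. YUC11, from 9 reads in all, reached 0.807 with ARF13 and 0.802 with the endosperm marker locus LOC_Os10g11580.

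**Figure D4:**
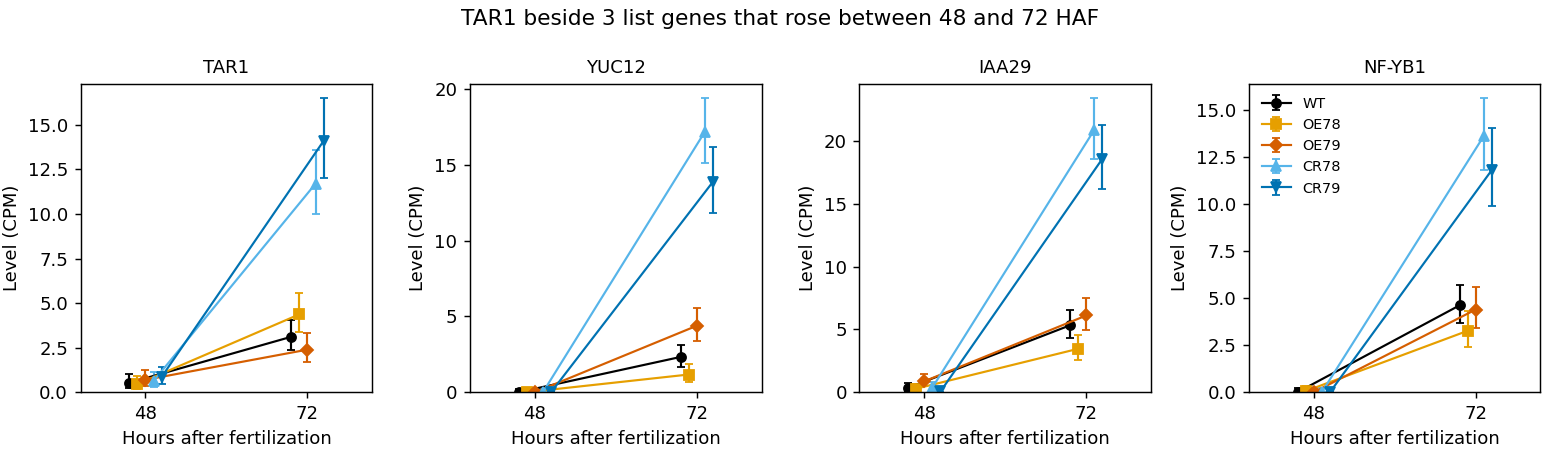
Level in CPM (vertical axis, linear, a scale of its own for each gene) of TAR1, YUC12, IAA29 and NF-YB1 at 48 and 72 HAF, with a line for each genotype, 1 library per point and exact 95% Poisson intervals as bars. In each of the 4 panels CR78 and CR79 lie above the other 3 genotypes at 72 HAF, and at 48 HAF no value exceeds 0.871 CPM. IAA29 and NF-YB1 were picked for their likeness to TAR1 over these same libraries, so their like pattern follows from the choice. YUC12 passed the filter on low counts only through its 72 HAF libraries.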

How the data were processed

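Per the labels' protocols, an RNeasy Plant mini kit gave the RNA and libraries followed Illumina protocols. The deposited values are raw read counts for each gene, not normalized by the authors. The authors used TopHat2 and HTSeq, per the submitters' processing notes. For genome build, annotation, tool versions and strand, nothing is given in the sources used here, so reads of close paralogs or antisense genes may be split or merged. Library totals were 12267337 to 18040600 counts.

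Genes were kept with the edgeR filter at a minimum count of 10 (25354 of 55801), scaled by TMM and tested with the two-sided quasi-likelihood test in edgeR 4.0.16 (R 4.3.3), p-values adjusted by Benjamini-Hochberg over every gene tested, threshold 0.05. Effects of time and of each line were taken from a model with additive genotype and time terms (4 residual degrees of freedom), in which the times of a line stand in for replicates. Class contrasts came from a mean per class and time (4 residual degrees of freedom). In runs without a library, a lone sample of an arm was taken to vary like the rest. CPM is the deposited count over the library total times its TMM factor. Both fits were tested on simulated counts of independent libraries with a fixed spread and no line or library effects beyond the changed genes. These data differ from that setting, so the simulation does not measure their error rates. Other runs used RLE size factors, no filter, DESeq2 1.42.0, other pairing and left-out libraries.

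Each line was sampled at both times, per the labels. As a check of that pairing, deviations from the time means were correlated between both libraries of each line (CR78 0.077, CR79 0.353, WT 0.318, OE78 -0.018, OE79 0.329).

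The members, lists and tests were chosen with earlier results of these data known. Each member is named, and of other lists up to 2 genes past the threshold with the smallest adjusted p, where the name passed a check. The RefSeq gene table (ASM3414082v1) lists 0 of these identifiers. A name passed where a RefSeq gene of that name lies within 2 Mb of the place its listed neighbours give. TAA1 and YUC1 passed, the other 5 member names are missing there and follow the published pairing, and of 116 other pairs 81 passed, 33 names were missing, 1 pair was contradicted (a green pericarp marker) and 1 identifier was absent. YUCCA loci are named without that check. Sequences were not used here, so a promoter motif search set down in the design was not run.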

Additional observations from a re-analysis of the deposited data

Results flagged for a closer look

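YUC9 was singled out because its change from 48 to 72 HAF had opposite signs in the classes: its level rose in both overexpression lines, to 1.45 times in OE78 and 2.01 times in OE79, and moved to 0.952 times in CR78 and 0.638 times in CR79. The WT ratio was 0.801. The test of this difference gave a log2 interaction of 1.07 (SE 0.59, edgeR adjusted p = 0.628), so the opposite signs did not pass it. All 4 tested members were screened for such signs, and the share over all tested genes was not counted. The classes follow the labels. Reads did not show overexpression in either line at 48 HAF. At 72 HAF MADS79 had 7 reads in OE79 and 20 in WT. The interaction was 0.63 without the OE79 48 HAF library, 1.7 without that of OE78 at 48 HAF, and 0.63 to 1.7 over all 10 runs that left out 1 library. The counting interval of the CR78 ratio, 0.664 to 1.36, includes no change, and the OE79 ratio rests on 29 reads at 48 HAF.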

How the results depend on the processing

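With RLE size factors, no filter on low counts and DESeq2, the call of TAR1 and TAA1 over time held. Over time 2 members were called, 1 without the replicate block (pairing by line ignored), 1 without the CR78 and OE78 48 HAF libraries together (chosen after seeing the data), and 1 to 2 when each library was left out in turn. TAR1 was the one that remained in each. For the interaction, the line as a replicate block called 0 members, with TAR1 at -1.62 (edgeR adjusted p = 0.284), while it called 1018 genes in all, against 3. Overexpression against CRISPR at 72 HAF called 0 members, and 1 with no filter and with DESeq2. Of 432 other runs over single members 383 kept direction and side, 37 changed sign, 10 lost the call (TAA1 over time in each) and 2 gained it (TAR1 at 72 HAF). The cause was not tested. TAA1 gave 0.4 (edgeR adjusted p = 0.0947) without the block and 0.48 (0.0826) without those 48 HAF libraries.

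Sign changes concerned values that had not been called. TAR1 in OE79 against WT went from -0.01 to 0 with RLE and 0.05 with DESeq2. Without the CR78 and OE78 48 HAF libraries YUC9 over time was -0.03, and the interaction of TAA1 was -0.16 and of YUC1 0.35. Leaving out each library in turn gave the following log2 ranges. Over time YUC9 ran from -0.12 to 0.27. Against WT, TAR1 ran from -0.28 to 0.53 in OE78 and from -0.73 to 1.06 in OE79, TAA1 from -0.1 to 0.33 in OE79 and from -0.06 to 0.09 in CR78, YUC1 from -0.14 to 2.83 in CR78 and from -0.15 to 2.79 in CR79, and YUC9 from -0.23 to 0.34 in OE78, from -0.2 to 0.31 in CR78 and from -0.37 to 0.58 in CR79. Between the classes at 48 HAF, TAA1 ran from -0.33 to 0.07 and YUC1 from -0.5 to 1.03. At 72 HAF TAA1 ran from -0.52 to 0.42, YUC1 from -1.24 to 1.14 and YUC9 from -0.17 to 0.43. For the interaction TAA1 ran from -0.39 to 0.54 and YUC1 from -1.31 to 1.07. Depth limits YUC1, YUC4, YUC6 and YUC11, whose libraries hold 0 to 18 reads.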
